A study of Mus musculus with 10 samples.

Results

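DARPP-32, the phosphoprotein encoded by Ppp1r1b, stands with its cAMP cascade for 10 genes named by symbol, and all 10 are among the 20483 genes of the deposited mouse expression table. They are Ppp1r1b itself, the phosphatase gene Ptpn5, the adenylyl cyclase gene Adcy5, the phosphodiesterase genes Pde1b, Pde2a, Pde10a and Pde7b, and the protein kinase A (PKA) genes Prkaca, Prkacb and Prkar2b. The samples are tissue of the lateral shell (n = 5 libraries) and of the medial shell (n = 5 libraries) of the nucleus accumbens, the ventral part of the striatum, and the comparison asks how the regions differ. All 10 libraries came from mice labelled WT, with no treatment named, and the sources used here give neither the animals' age and sex nor the placing of the pieces. Small pieces of tissue were taken with Geo-seq, which cuts them from a section by laser and amplifies their RNA. The labels call the samples biological replicates without tying them to animals, so p-values reflect only how much these samples varied, in part perhaps for technical reasons, and are too small if some share an animal.

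In the spiny projection neurons that make up most of the striatum, dopamine and adenosine receptors raise or lower cAMP through G proteins and type 5 adenylyl cyclase. cAMP releases the catalytic subunits of PKA from their regulatory subunits, and phosphodiesterases end the signal by hydrolysing cAMP and cGMP. PKA phosphorylates DARPP-32, which then inhibits protein phosphatase 1, while calcineurin removes that phosphate and Cdk5 phosphorylates a second site that turns DARPP-32 into an inhibitor of PKA.

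The coding sequence around both threonines is shown because the kinases and phosphatases treated with the 10 genes meet there. The threonine at codon 34 is the PKA site and the one at codon 75 the Cdk5 site. Both stretches come from GENCODE M21 on GRCm38, plus strand, with the threonine codon in capitals, and each crosses an exon junction. The first covers codons 27 to 41 (chr11:98349172-98350610) and the second codons 68 to 82 (chr11:98351302-98355331).
Ppp1r1b codon 34: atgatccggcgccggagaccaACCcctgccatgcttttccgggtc
Ppp1r1b codon 75: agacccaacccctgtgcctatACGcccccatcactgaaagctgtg

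None of the 10 genes differed between lateral and medial shell past the threshold, an adjusted p under 0.05 with limma over the 15596 genes tested, all 10 of which passed the filter on low values. Over all genes tested 1.48% were called, 0.385% as higher and 1.1% as lower in lateral libraries. The 10 genes lay on both sides of 0, with 5 positive and 5 negative log2 fold changes (lateral minus medial, on log2(TPM + 1)). Ppp1r1b, Adcy5, Pde1b, Pde10a and Pde7b had higher lateral means, and Prkar2b and Prkacb had lower ones by more than Pde2a, Prkaca and Ptpn5. The median over the 10 was 0.16, against -0.21 over all genes tested and -0.12 over the 2927 tested genes averaging 30 TPM or more. At an unadjusted p under 0.05, 2 of the 10 passed, Adcy5 and Ppp1r1b, where 15.4% of all genes did (3.03% of all as higher in lateral libraries, the direction of both). For none of the 10 were the values of the regions apart, against 4.25% of all genes, 0.859% with lateral above and 3.39% with medial above. In bulk tissue, fewer cells of a type and less RNA per cell cannot be told apart.

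**Figure D1:**
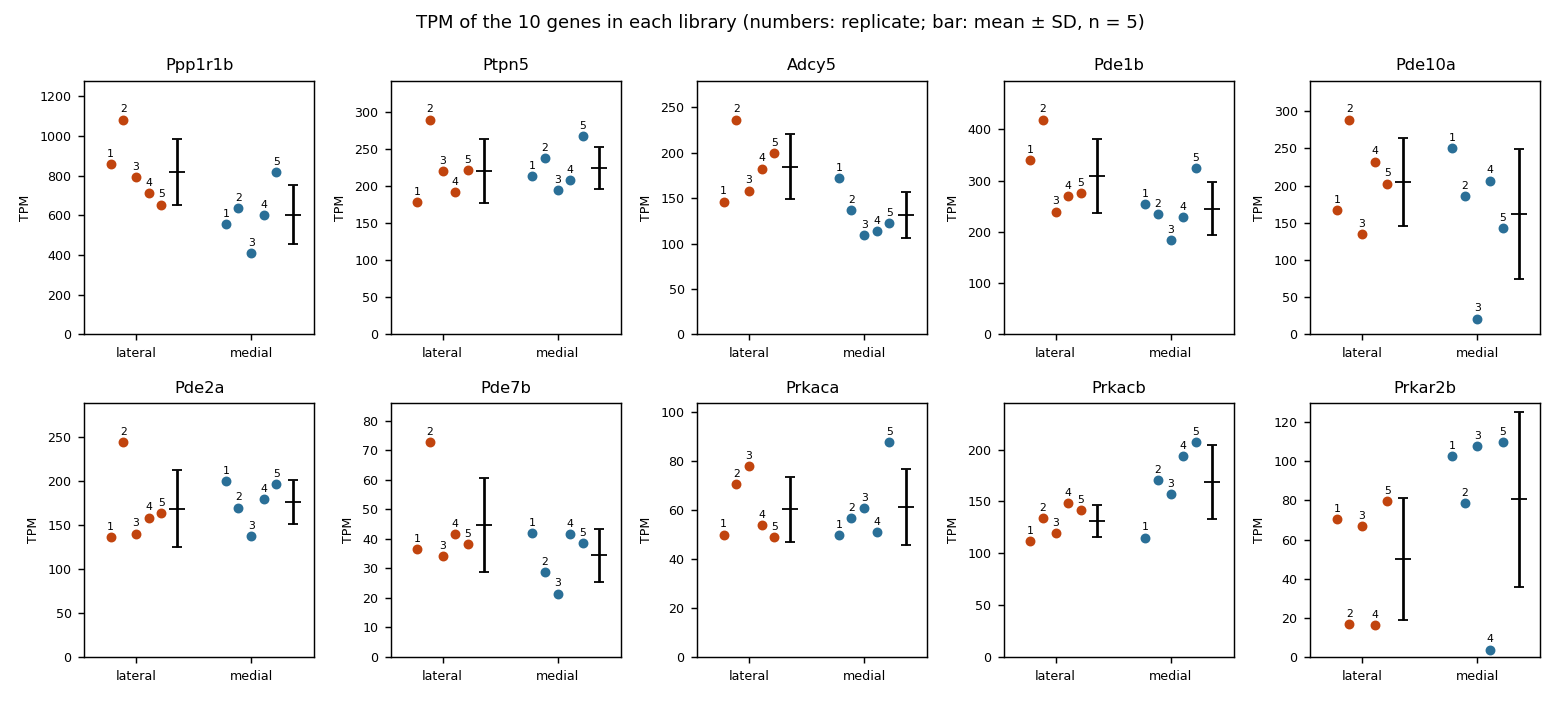
Level of each of the 10 genes in TPM (vertical axes, starting at 0) in lateral (left) and medial (right) libraries, 1 numbered point per library, with the mean and SD (n = 5 each). The groups overlap in every panel, and medial replicate 3 for Pde10a (21.4 TPM) and medial replicate 4 for Prkar2b (3.73 TPM) lie far below the other medial libraries.

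Ppp1r1b (chromosome 11, 98348404 to 98357796, plus strand, GRCm38) had 859, 1082, 791, 711 and 654 TPM in lateral replicates 1 to 5, against 556, 638, 409, 602 and 817 TPM in medial replicates 1 to 5. Of the lateral libraries only replicates 1 and 2 lay above the highest medial value, that of replicate 5. The means were 820 ± 166 TPM in lateral tissue and 604 ± 148 TPM in medial tissue (SD, n = 5 each). The log2 fold change of 0.45 had a standard error of 0.19 and a 95% interval of 0.03 to 0.87, and it did not pass after adjustment (limma adjusted p = 0.288). DARPP-32 was the most abundant of the 10 transcripts per length in each library and ranked 75 of all genes by mean TPM. Of its exonic bases 15.7% overlap 1700003D09Rik on the other strand, listed at 2.15 to 24.1 TPM, and the sources used here do not say whether counting used strand.

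Ptpn5 (chromosome 7, 47077795 to 47133684, minus strand) encodes STEP, a striatum-enriched tyrosine phosphatase that PKA inhibits by phosphorylation and that acts on ERK and glutamate receptor subunits. It had 178, 290, 220, 193 and 222 TPM in lateral and 214, 238, 195, 209 and 268 TPM in medial libraries. Lateral values ran both below and above the medial ones. The log2 fold change was -0.04 with a 95% interval of -0.38 to 0.31 (limma adjusted p = 0.938), so lateral to medial ratios above 1.24 or below 0.769 lie outside the interval. Ptpn5 also varied least within the regions, with a pooled SD of 0.23 on the log2 scale.

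Adcy5 (chromosome 16, 35154877 to 35305738, plus strand), the main adenylyl cyclase of striatal neurons, had the smallest p of the 10. It had 146, 236, 158, 182 and 199 TPM in lateral and 172, 137, 110, 113 and 123 TPM in medial libraries. Without medial replicate 1, the highest of its group, every medial value would lie below every lateral one. The log2 fold change of 0.49 (standard error 0.17, 95% interval 0.11 to 0.87) did not pass after adjustment (limma adjusted p = 0.203, and 0.104 without medial replicate 1). Of the summed TPM of the 7 adenylyl cyclase genes in the table, Adcy5 took 77.9% ± 4.39 in lateral and 78.9% ± 6.74 in medial libraries (SD, n = 5 each). That share differed by -1.04 percentage points (exact two-sided permutation p = 0.762, also after adjustment over 6 shares), and without medial replicate 2 the difference was 0.90 points.

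The phosphodiesterases were led by Pde1b (chromosome 15, 103503034 to 103530052, plus strand), whose enzyme is switched on by calcium and calmodulin and hydrolyses both cAMP and cGMP. It had 340, 419, 239, 270 and 276 TPM in lateral and 254, 234, 184, 228 and 324 TPM in medial libraries. Lateral replicates 1 and 2 exceeded all medial libraries and the other lateral ones lay among them. Its log2 fold change of 0.33 did not pass (limma adjusted p = 0.433, 95% interval -0.08 to 0.73), and it was 0.21 without lateral replicate 2.

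Pde10a (chromosome 17, 8525372 to 8986648, plus strand) encodes an enzyme for cAMP and cGMP that is concentrated in spiny projection neurons. It had 168, 289, 135, 232 and 203 TPM in lateral and 250, 186, 21.4, 207 and 143 TPM in medial libraries. Medial replicate 3 stood apart, and the other libraries of both regions covered much the same range. With all libraries the log2 fold change was 0.66 (limma adjusted p = 0.587, 95% interval -0.47 to 1.79), and without medial replicate 3 it was 0.04 (-0.46 to 0.55, adjusted p = 0.954), so the size of the difference rests on that library.

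Pde2a (chromosome 7, 101421691 to 101512827, plus strand), whose enzyme is stimulated by cGMP, had 137, 245, 140, 159 and 164 TPM in lateral and 200, 170, 137, 179 and 197 TPM in medial libraries. The lateral values enclosed all medial ones, and the log2 fold change of -0.09 did not pass (limma adjusted p = 0.859, 95% interval -0.47 to 0.30). Gm45837 covers 64.3% of the exonic bases of Pde2a on the same strand and was listed at 0 to 3.25 TPM, so the level of Pde2a is uncertain where the counting could split reads between them. Pde7b (chromosome 10, 20398004 to 20725078, minus strand), a cAMP-specific enzyme, was the least abundant of the 10 at 36.4, 72.7, 34.1, 41.6 and 38.2 TPM in lateral and 41.8, 28.8, 21.4, 41.6 and 38.5 TPM in medial libraries. Apart from lateral replicate 2, the lateral values lay within the medial range. Its log2 fold change of 0.35 (limma adjusted p = 0.541, 95% interval -0.19 to 0.88) was 0.16 without lateral replicate 2.

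Within each library, shares of the 15 cyclic nucleotide phosphodiesterase genes in the table do not depend on the scaling between libraries. Pde1b took 43.0%, 37.1%, 35.6%, 33.1% and 35.5% of their summed TPM in lateral and 29.3%, 29.8%, 33.1%, 26.6% and 35.3% in medial libraries. All lateral shares but that of replicate 4 exceeded every medial one. The means of 36.9% ± 3.74 in lateral and 30.8% ± 3.42 in medial libraries (SD, n = 5 each) differed by 6.06 points (exact two-sided permutation p = 0.0238), which did not pass after adjustment over the 6 shares (adjusted p = 0.143). The smallest p these 252 divisions of the libraries allow is 0.00794.

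The Pde2a share was 20.1% ± 1.76 in lateral and 22.3% ± 1.57 in medial libraries, a difference of -2.26 points (exact permutation p = 0.0794, adjusted p = 0.238). The Pde10a share was 24.3% ± 3.54 in lateral and 19.2% ± 9.82 in medial libraries, with 3.85% in medial replicate 3 (exact permutation p = 0.357, adjusted p = 0.536). Its difference of 5.08 points was 1.24 points without medial replicate 3. Together Pde1b, Pde10a, Pde2a and Pde7b made up 86.2%, 90.9%, 81.6%, 86.1% and 87.6% of phosphodiesterase TPM in lateral and 86.1%, 78.7%, 65.6%, 76.3% and 76.5% in medial libraries. This sum was formed after the values were seen and was not tested. The largest other contributors were Pde1a, at 2.90% in lateral and 6.95% in medial libraries, Pde4b, at 3.37% in lateral and 4.80% in medial ones, and Pde8b, at 1.87% in lateral and 4.30% in medial ones.

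**Figure D2:**
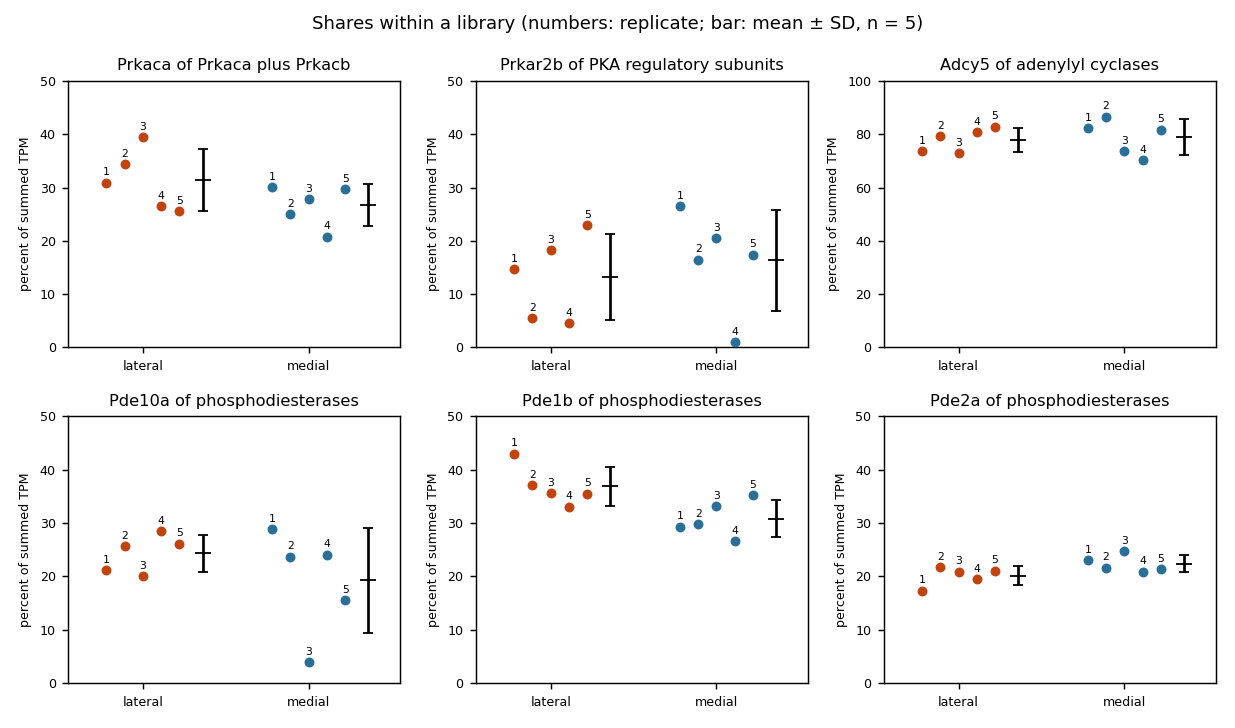
Shares in percent (vertical axes) of a gene within the summed TPM of its gene group, in lateral (left) and medial (right) libraries, 1 numbered point per library, with the mean and SD (n = 5 each). The Pde1b share of phosphodiesterases has the clearest offset, 36.9% in lateral and 30.8% in medial libraries, with an overlap between them.

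The PKA genes showed no called difference either, and Prkacb and Prkar2b had their lower means in lateral tissue. Prkacb (chromosome 3, 146729574 to 146812990, minus strand), the beta catalytic subunit, had 111, 134, 119, 149 and 142 TPM in lateral and 115, 170, 157, 194 and 207 TPM in medial libraries. All medial libraries but replicate 1 lay above every lateral one. For Prkacb the log2 fold change was -0.34 (standard error 0.17, 95% interval -0.72 to 0.03, unadjusted p = 0.0701 and adjusted p = 0.374 with limma). Prkaca (chromosome 8, 83972993 to 83996443, plus strand), the alpha catalytic subunit, had 49.95, 70.5, 78.0, 53.7 and 48.9 TPM in lateral and 49.6, 56.7, 60.9, 50.8 and 87.7 TPM in medial libraries. The regions covered similar ranges, with a log2 fold change of -0.02 (limma adjusted p = 0.979, 95% interval -0.45 to 0.42).

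Prkaca made up 31.4% ± 5.76 of the catalytic TPM of both genes in lateral and 26.7% ± 3.88 in medial libraries (SD, n = 5 each). The difference of 4.71 points did not pass (exact two-sided permutation p = 0.175, adjusted p = 0.349), and it was 2.68 points without lateral replicate 3. The beta transcript was therefore the more abundant catalytic one per length in all 10 libraries.

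Prkar2b (chromosome 12, 31958476 to 32061296, minus strand) encodes the RII-beta regulatory subunit, a form that binds A-kinase anchoring proteins in striatal neurons. Its values split within both regions, at 70.5, 16.8, 66.9, 16.1 and 79.8 TPM in lateral and 103, 78.5, 108, 3.73 and 110 TPM in medial libraries. Lateral replicates 2 and 4 and medial replicate 4 were low, and the remaining lateral libraries stood near or below the remaining medial ones. The log2 fold change was -0.40 with an interval of -2.12 to 1.32 (limma adjusted p = 0.853). Without medial replicate 4 it was -1.28 (-2.28 to -0.27, adjusted p = 0.258), and without lateral replicate 2 or 4 it was -0.09 and -0.08 (adjusted p = 0.970 and 0.978). The pooled within-region SD of 1.61 on the log2 scale exceeded that of 99.0% of the 2869 tested genes with means of 30 to 1000 TPM, and Pde10a, at 1.05, exceeded 97.2%.

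Among the 4 regulatory subunit genes Prkar2b took 13.2% ± 8.04 of the TPM in lateral and 16.4% ± 9.47 in medial libraries, a difference of -3.21 points (exact permutation p = 0.595, adjusted p = 0.714). The difference was -7.06 points without medial replicate 4 and -0.68 points without medial replicate 1. Summed regulatory TPM stood at 1.98 ± 0.575 times summed catalytic TPM in lateral and 2.12 ± 0.323 times in medial libraries (SD, n = 5 each).

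Of the 10 genes, 9 have windows in the set of RefSeq promoters used (GRCm38.p6), from 250 bases before to 50 after a start. Ppp1r1b has no window in that set, so its promoter was not searched. cAMP reaches gene expression through the factor CREB, which PKA phosphorylates and which binds the cAMP response element, so the windows were searched for the core TGACG of that element on both strands (read as CGTCA where it lies on the opposite strand). It occurred in 3 of 21 windows (14.3%), at Prkaca, Prkacb and Pde2a, against 20.8% of all 32851 windows of that length, and the full element TGACGTCA in none of the 21, against 1.79% of all. Prkaca has 2 windows and Prkacb 3, and the 1 window of each that holds a core is printed, with the core in capitals, because the balance of these genes was compared above. The printed window of Prkaca is chr8:83972728-83973027, plus strand, and that of Prkacb chr3:146812897-146813196, minus strand.
Prkaca promoter: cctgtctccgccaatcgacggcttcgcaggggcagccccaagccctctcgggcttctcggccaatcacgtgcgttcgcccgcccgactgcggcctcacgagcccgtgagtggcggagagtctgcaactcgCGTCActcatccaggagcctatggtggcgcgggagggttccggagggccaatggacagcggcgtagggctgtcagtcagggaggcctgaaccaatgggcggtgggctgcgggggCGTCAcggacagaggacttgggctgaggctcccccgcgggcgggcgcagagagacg
Prkacb promoter: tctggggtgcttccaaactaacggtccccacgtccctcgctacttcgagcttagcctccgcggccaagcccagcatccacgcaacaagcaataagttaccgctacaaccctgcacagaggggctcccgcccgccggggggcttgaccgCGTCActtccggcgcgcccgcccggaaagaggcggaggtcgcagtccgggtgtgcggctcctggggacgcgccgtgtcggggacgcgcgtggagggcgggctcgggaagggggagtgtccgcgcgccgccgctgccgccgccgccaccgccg

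By mean TPM, a per-length level, the order was Ppp1r1b (712 TPM over 10 libraries), Pde1b (277), Ptpn5 (223), Pde10a (183), Pde2a (173), Adcy5 (158), Prkacb (150), Prkar2b (65.2), Prkaca (60.7) and Pde7b (39.5). Ppp1r1b lay above Pde1b and Prkacb above Prkar2b in 10 of 10 libraries, and Prkaca above Pde7b in 9 of 10. Pde1b above Ptpn5 and Ptpn5 above Pde10a held in 8 of 10. Between the other neighbours the order changed with the library. Pde10a exceeded Pde2a in 7 of 10 (4 lateral, 3 medial) and Prkar2b exceeded Prkaca in 6 of 10 (2 lateral, 4 medial). For 2 pairs the order mostly followed the region. Pde2a exceeded Adcy5 in 1 of 5 lateral and 5 of 5 medial libraries. Adcy5 exceeded Prkacb in 5 of 5 lateral and 1 of 5 medial libraries. These splits by region were not tested.

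**Figure D3:**
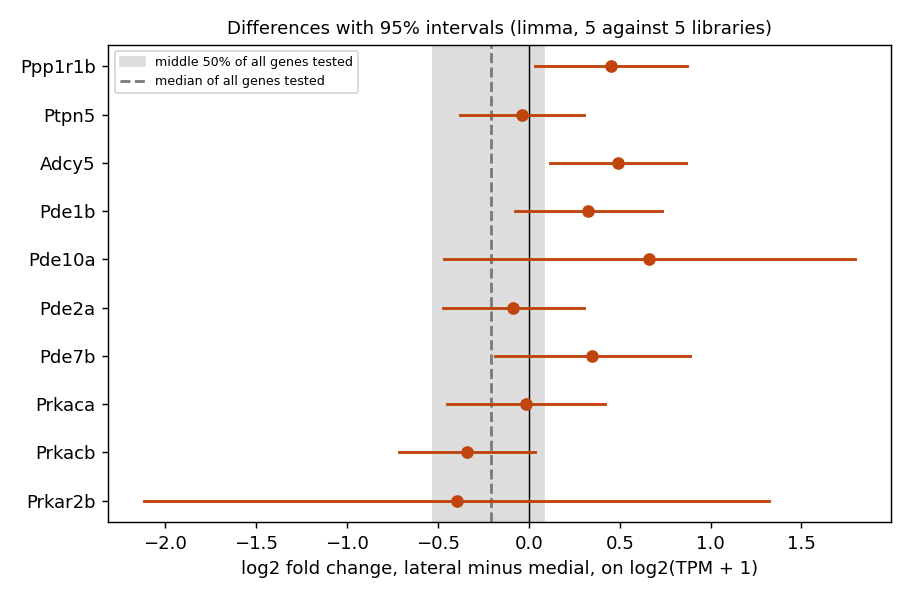
Log2 fold change of each of the 10 genes (horizontal axis, lateral minus medial on log2(TPM + 1)) with its 95% interval from limma, over a grey band for the central part of all genes tested and a dashed line at their median of -0.21. The point estimates run from -0.40 for Prkar2b to 0.66 for Pde10a, the genes with the widest intervals, and the intervals of Adcy5 and Ppp1r1b do not reach 0 although neither passed after adjustment.

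The 10 genes tended to vary together between libraries of the same region, and other genes of like level were not compared. Correlations of log2 deviations from the region means, given as a description over 10 libraries that share amplification and scaling, had a median of 0.34 over 45 pairs, with 35 positive and 20 above 0.5. Pde2a and Pde7b (r = 0.94), Ppp1r1b and Pde1b (r = 0.87), and Adcy5 and Pde2a (r = 0.80) were among the closest pairs. Prkar2b stood apart, at -0.51 with Pde7b and -0.43 with Prkacb. Lateral replicate 2 held the highest value of 7 of the 10 genes and medial replicate 5 that of the other 3, while medial replicate 3 held the lowest of 5. The sum of the 10 genes ran from 1982 to 2854 TPM in lateral and from 1403 to 2316 TPM in medial libraries.

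The genes whose levels followed Ppp1r1b most closely were taken among 3907 genes averaging 20 TPM or more. They were the annexin gene Anxa6 (Pearson r = 0.93 over 10 libraries, on log2(TPM + 1)), the transcription coactivator gene Mrtfb (0.92), Grina (0.92), the GABA-A receptor subunit gene Gabra4 (0.91) and the actinin gene Actn2 (0.90). Among the other 9 genes of the cascade, Pde1b was closest at 0.90 and Pde7b next at 0.75. The lowest correlations were those of Ptprz1 (-0.83), Cggbp1 (-0.82) and Tmbim4 (-0.81). Unlike the correlations between pairs above, these did not remove the region means, so differences between the regions enter them. The highest and lowest are extremes picked from 3907 genes over 10 libraries and were not tested.

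Around the 10 genes, 10 further lists named 117 gene symbols of the cascade, of which 100 were in the expression table. Of these, 99 were tested and 3 were called, 2 as higher and 1 as lower in lateral libraries. That is 3.03%, beside 1.48% of all genes tested. Their median log2 fold change was -0.14, and 8 of the 99 had values that did not overlap between the regions, against 4.25% of all genes tested. The lists were chosen with earlier results of these data known, so these comparisons with all genes are a description and not a test. The 3 are Ppp3ca, Adcy1 and Gucy1a1.

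Ppp3ca (chromosome 3, 136670124 to 136937727, plus strand) encodes a catalytic subunit of calcineurin, the calcium-activated phosphatase of the codon 34 site printed above. It had 377, 481, 395, 390 and 460 TPM in lateral and 266, 195, 192, 194 and 282 TPM in medial libraries. Every lateral value lay above every medial one. Ppp3ca rose to 421 ± 46.5 TPM in lateral, against 226 ± 44.3 TPM in medial libraries (SD, n = 5 each), or by 0.91 on the log2 scale (standard error 0.16, limma adjusted p = 0.014). The call held without each library in turn (adjusted p up to 0.0492). It was lost in 4 of 23 alternatives. Among them was a rescaling of libraries that set level the mean of 8 spiny neuron marker genes (limma adjusted p = 0.131). Others were the fits without a mean-variance trend (0.0669) and without lateral replicate 5 and medial replicate 2 together (0.118). The calcineurin regulatory subunit gene Ppp3r1 was at 393 ± 82.3 TPM in lateral tissue and 271 ± 55.4 TPM in medial tissue (log2 fold change 0.53, adjusted p = 0.203). The catalytic subunit gene Ppp3cb was at 44.8 ± 7.35 TPM in lateral tissue and 45.8 ± 8.51 TPM in medial tissue (-0.03, adjusted p = 0.963). Another catalytic subunit gene, Ppp3cc, was lower in lateral tissue, at 3.50 ± 3.11 TPM against 6.91 ± 1.70 TPM in medial tissue (-1.16, limma adjusted p = 0.308).

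Adcy1 (chromosome 11, 7063489 to 7178506, plus strand), the calcium and calmodulin-stimulated adenylyl cyclase, had 14.8, 21.1, 18.0, 10.3 and 14.1 TPM in lateral and 7.72, 3.11, 4.29, 6.73 and 5.72 TPM in medial libraries. The regions did not overlap, although all values were far below those of Adcy5. Adcy1 rose by 1.37 on the log2 scale (standard error 0.29, limma adjusted p = 0.0344). Its call was lost in 12 of 23 alternatives. These included the fits without any 1 of lateral replicates 1, 2, 3 and 5 or of medial replicates 2 to 5 (with an adjusted p as high as 0.0823), without the filter on low values (0.0516), with the spiny neuron genes set level (0.0984) and without lateral replicate 5 and medial replicate 2 together (0.145). None of the other 4 tested adenylyl cyclase genes passed. The nearest was Adcy9, at 14.7 ± 3.22 TPM in lateral tissue and 8.52 ± 2.89 TPM in medial tissue (log2 fold change 0.76, adjusted p = 0.22).

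Gucy1a1 (chromosome 3, 82092427 to 82145789, minus strand) encodes a subunit of the nitric oxide receptor that makes cGMP, the stimulator of the Pde2a enzyme. It had 122, 74.9, 85.7, 94.0 and 65.8 TPM in lateral and 112, 173, 153, 190 and 214 TPM in medial libraries. Lateral replicate 1 lay just above medial replicate 1, and all other lateral values lay below the medial ones. Gucy1a1 fell by 0.92 on the log2 scale (standard error 0.21, limma adjusted p = 0.043). The call was lost in 16 of 23 alternatives, among them every fit that left out 1 library other than replicate 1 of either region (with an adjusted p as high as 0.113) and the fit without lateral replicate 5 and medial replicate 2 together (0.209). Its partner Gucy1b1 was at 75.5 ± 10.1 TPM in lateral tissue and 97.9 ± 24.9 TPM in medial tissue (-0.34, adjusted p = 0.444), and the neuronal nitric oxide synthase gene Nos1, an interneuron marker, at 18.5 ± 14.0 TPM in lateral tissue and 6.78 ± 7.82 TPM in medial tissue (1.41, adjusted p = 0.308).

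**Figure D4:**
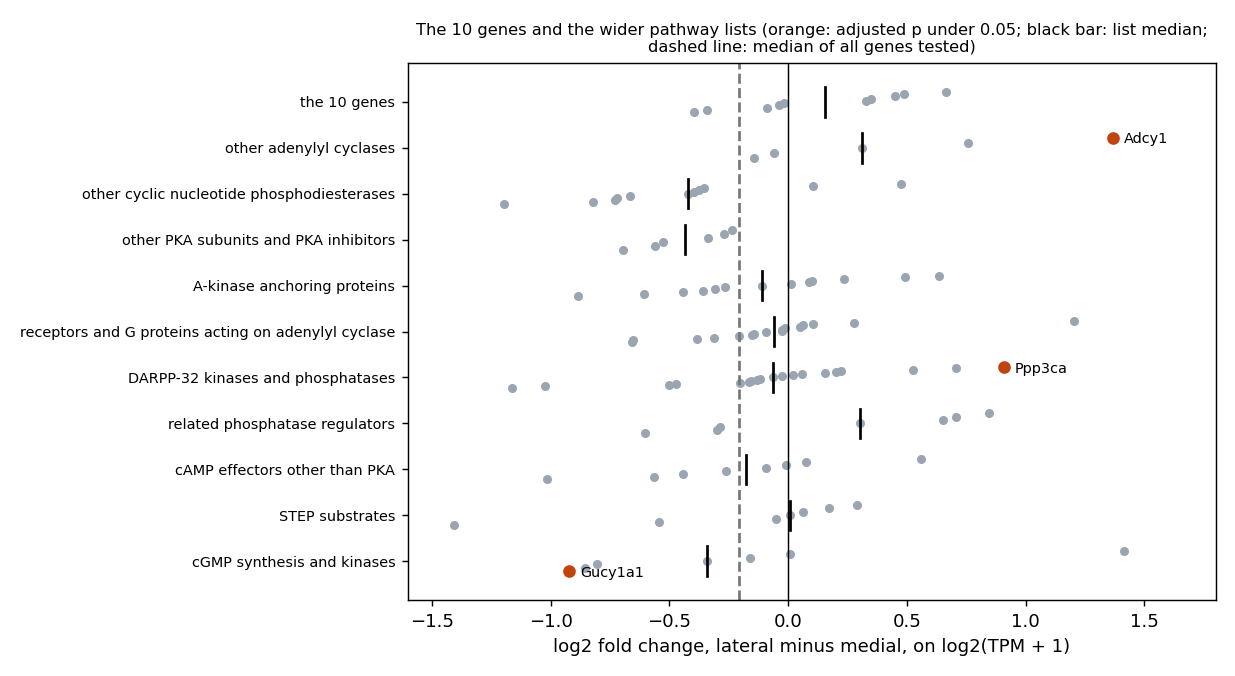
Log2 fold change (horizontal axis, lateral minus medial) of every tested gene of the 10 genes and of the 10 wider lists, 1 point per gene, with list medians as black bars and the median of all genes tested, -0.21, as a dashed line. Only Adcy1, Ppp3ca and Gucy1a1 passed the threshold.

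The other phosphodiesterase genes and the other PKA genes held mostly negative fold changes and no call. Of the 11 other phosphodiesterase genes, 0 passed and 9 had negative log2 fold changes (median -0.42). Pde8b, a cAMP-specific enzyme, was at 25.9, 29.4, 11.2, 8.87 and 5.55 TPM in lateral and 22.5, 35.7, 36.3, 30.3 and 39.7 TPM in medial libraries, with lateral replicates 1 and 2 among the medial values (log2 fold change -1.20, limma adjusted p = 0.154). Of the 6 other PKA subunit and inhibitor genes, 0 passed and all 6 were negative (median -0.43). Among them the RII-alpha gene Prkar2a was at 8.98 ± 2.47 TPM in lateral tissue and 14.9 ± 3.40 TPM in medial tissue (-0.69, adjusted p = 0.23) and the PKA inhibitor gene Pkia at 74.1 ± 21.4 TPM in lateral tissue and 105 ± 14.8 TPM in medial tissue (-0.53, adjusted p = 0.224). With 31.3% of all genes tested positive, negative values are the more frequent sign at this scaling.

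Among 7 related phosphatase regulators 0 passed (median 0.30). Ppp1r2, encoding inhibitor 2 of protein phosphatase 1, had 159, 144, 129, 149 and 179 TPM in lateral and 195, 226, 200, 258 and 283 TPM in medial libraries. The regions did not overlap, yet the log2 fold change of -0.60 missed the threshold (limma adjusted p = 0.0742). Ppp1r9b, encoding the phosphatase 1 anchor spinophilin, was at 134 ± 31.3 TPM in lateral tissue and 83.5 ± 10.6 TPM in medial tissue (0.65, limma adjusted p = 0.0958). Arpp19, a cAMP-regulated phosphoprotein gene, was at 162 ± 94.0 TPM in lateral tissue and 81.8 ± 14.5 TPM in medial tissue (0.85, limma adjusted p = 0.162). Its lateral mean was raised by replicate 1, at 328 TPM, where the other lateral libraries had 97.6 to 130 TPM. The regions did not overlap, but only narrowly, with a highest medial value of 97.4 TPM. Ppp2r3a, one of 19 tested DARPP-32 kinase and phosphatase genes, encodes a regulatory subunit of protein phosphatase 2A. It was at 6.14 ± 1.73 TPM in lateral tissue and 13.3 ± 2.14 TPM in medial tissue without overlap (-1.02, adjusted p = 0.0711).

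In the remaining lists 0 of 13 A-kinase anchoring protein genes passed (median -0.11), 0 of 16 receptor and G protein genes (-0.06), 0 of 8 genes of other cAMP effectors (-0.18) and 0 of 7 STEP substrate genes (0.01). Map2, a microtubule protein that binds RII subunits, was at 28.6 ± 8.14 TPM in lateral tissue and 54.3 ± 17.6 TPM in medial tissue (-0.88, limma adjusted p = 0.138). Gria2, an AMPA receptor subunit gene, was at 79.8 ± 9.48 TPM in lateral tissue and 117 ± 14.2 TPM in medial tissue without overlap (-0.54, adjusted p = 0.101). The olfactory G protein gene Gnal, which couples dopamine D1 receptors to Adcy5, was at 151 ± 22.7 TPM in lateral tissue and 153 ± 16.7 TPM in medial tissue (-0.03, adjusted p = 0.955). Transcripts of Drd1 stood at 118 ± 27.7 TPM in lateral tissue and 112 ± 27.5 TPM in medial tissue (adjusted p = 0.915). The smallest p of that list, with 5 positive and 11 negative genes, were those of Ric8b (-0.38, limma adjusted p = 0.29) and Gnai1 (-0.66, 0.304). Among the other cAMP effectors, with 2 positive and 6 negative, they were those of Rapgef3 (-1.01, 0.218) and Rapgef4 (-0.56, 0.248).

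Scaling between libraries moved the log2 fold changes, in most but not all cases along with the median of all genes. That median was -0.21 as deposited, -0.02 with median-ratio scaling, 0.00 with quantile normalization and -0.45 with the spiny neuron genes set level. Only the mean of those 8 genes was set level. As deposited, 3 of them were positive and 5 negative (median log2 fold change -0.04), with Rasgrp2 at 1.65 and Syndig1l at 0.79. The calls over all genes split into 60 higher and 171 lower in lateral libraries as deposited, 88 higher and 82 lower with median-ratio scaling, 86 higher and 100 lower with quantile normalization, and 29 higher and 238 lower with the spiny neuron genes set level. None of the 10 genes was called under any scaling, although the sizes depended on it. The log2 fold change of Adcy5 was 0.70 with median-ratio scaling (limma adjusted p = 0.0919), 0.57 with quantile normalization and 0.25 with the spiny neuron genes set level. For Ppp1r1b it was 0.66 (adjusted p = 0.0742), 0.41 and 0.21 under the same scalings, and for Pde1b 0.54 (adjusted p = 0.143), 0.38 and 0.08. Pde7b was at 0.55, 0.51 and 0.10, Pde10a at 0.87, 0.74 and 0.42, and Prkacb at -0.13, -0.28 and -0.59. With the spiny neuron genes set level, Map2 (-1.13) and Ppp2r3a (-1.27) were the pathway genes called, both lower in lateral libraries. Ppp3ca, Adcy1 and Gucy1a1 missed the threshold there with log2 fold changes of 0.66, 1.12 and -1.16 in the same directions.

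**Figure D5:**
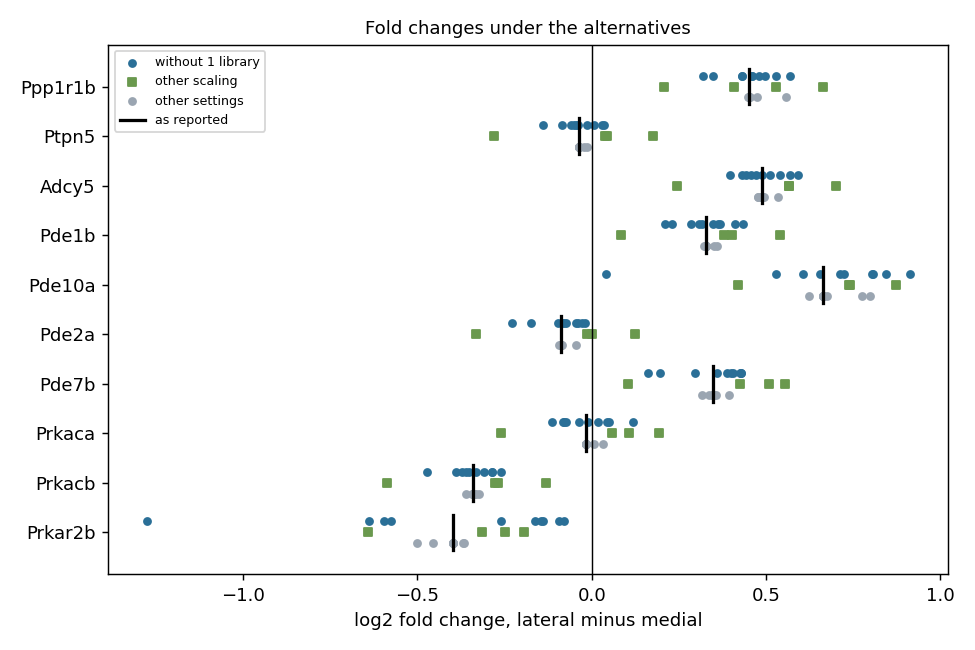
Log2 fold changes of the 10 genes (horizontal axis, lateral minus medial) under 23 alternative settings. Ppp1r1b, Adcy5, Pde1b, Pde10a and Pde7b stayed positive and Prkacb and Prkar2b negative in all of them, while Pde2a, Prkaca and Ptpn5 took both signs.

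Each library listed 15402 to 17003 genes above 0, mitochondrial genes took 23.5% to 35.3% of its TPM, and TPM keeps no depth, so counting error is unknown. Checked against markers of striatal tissue, the spiny projection neuron list summed to 3306 to 5289 TPM in lateral and 4040 to 5942 TPM in medial libraries with 0 of 14 called, while the glutamatergic markers Slc17a6 and Neurod6 summed to at most 3.31 TPM. Marker sums of other cell types are given by region. Microglial markers summed to 328 to 526 TPM in lateral and 160 to 342 TPM in medial libraries (3 of 8 called, all 8 positive), and oligodendrocyte markers to 279 to 860 TPM in lateral and 108 to 426 TPM in medial ones (0 of 7 called, all 7 positive). GABAergic interneuron markers summed to 492 to 5631 TPM in lateral and 27.6 to 1684 TPM in medial libraries (0 of 7 called, all 7 positive). Sst and Npy made up most of the highest sum, at 2577 and 2962 TPM in lateral replicate 3. Medial replicate 5 gave the 1684 TPM, and the other medial libraries were at 282 TPM or less. Astrocyte markers summed to 448 to 645 TPM in lateral and 567 to 739 TPM in medial libraries (1 of 7 called, 2 positive and 5 negative). The called gene, Ntsr2, was lower in lateral libraries (-0.90), while Gfap was at 1.61 without a call. Cholinergic markers summed to 2.41 to 204 TPM in lateral and 1.38 to 166 TPM in medial libraries (0 of 5 called, 3 positive and 2 negative). Endothelial and mural markers summed to 114 to 285 TPM in lateral and 127 to 206 TPM in medial ones (0 of 6 called, 4 positive and 2 negative). The part of these cell types in the values of the 10 genes and of Ppp3ca, Adcy1 and Gucy1a1 was not tested. Levels of AY036118 were near 0 only in lateral replicate 5 (1.38 TPM) and medial replicate 2 (1.42 TPM), and this gene held 82500 to 144263 of the 1000000 TPM in the other 8 libraries. Without both libraries none of the 10 genes and none of the 99 pathway genes was called.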

How the data were processed

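The deposited values are TPM, which the authors scaled to a total of 1000000 per library over gene lengths. Tools named by the submitters' processing notes, without roles, are HISAT2 2.1.0, featureCounts 1.6.3, StringTie 1.3.4 and fastp 0.20.0, with build GRCm38. The 10 libraries were compared with limma 3.58.1 (R 4.3.3, empirical Bayes, trended variance) on log2(TPM + 1) over genes with at least 1 TPM in at least 5 libraries, with Benjamini-Hochberg adjustment over all of them. This scale understates changes of low genes. The 6 within-library shares had exact two-sided permutation tests adjusted over the 6. The members and lists were chosen with earlier results of these data known. The text names all 10 genes, each called gene of a list and some of its 3 smallest p, and the 5 highest and 3 lowest correlations with Ppp1r1b. Named outside that rule, after their values were seen, were Ppp3cb, Ppp3cc, Gucy1b1, Gnal, Drd1, Pde1a and Pde4b. So were the marker genes Penk, Tac1, Pdyn, Rasgrp2, Syndig1l, Sst, Npy, Slc17a6, Neurod6, Ntsr2 and Gfap. Also outside the rule were AY036118 and the overlapping genes 1700003D09Rik and Gm45837. Listed symbols outside the table were not analysed here. Positions came from GENCODE M21 and promoters from RefSeq. The scripts were tested on simulated data. Alternatives changed the pseudocount, filter, scaling, variance model, weights, replicate block and each library.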

Additional observations from a re-analysis of the deposited data

Results flagged for a closer look

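In 3 of the 38 groups of 5 libraries examined, a library lay farther from its neighbours than Dixon's 95% critical value of 0.71 allows on the log2 scale, and chance alone gives about 1 in 20 groups. Prkar2b was at 3.73 TPM in medial replicate 4, where the next medial library had 78.5 TPM (gap over range 0.895). Pde10a was at 21.4 TPM in medial replicate 3, where the next had 143 TPM (0.770). Pde7b was at 72.7 TPM in lateral replicate 2, where the next lateral library had 41.6 TPM (0.739). The cause was not tested.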

How the results depend on the processing

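None of the 10 genes was called under any of 23 alternatives. The count of pathway genes called, 3 as reported, was 1 with no mean-variance trend, 1 with no filter on low values, 0 with the replicate number as a block and 0 without both AY036118-low libraries, which leaves fewer samples. Leaving out 1 library gave 1 to 4, with Gnai1 as the added gene without medial replicate 1. Deviations of same-numbered libraries were hardly correlated over all genes (from -0.053 to 0.042), which cannot show whether those libraries share an animal. The block left 19 higher and 45 lower calls over all genes. With it the limma adjusted p was 0.0598 for Ppp3ca, 0.116 for Adcy1 and 0.135 for Gucy1a1. Signs turned where values were near 0. With median-ratio scaling Pde2a was at 0.12, Prkaca at 0.19 and Ptpn5 at 0.17, and with quantile normalization they were at 0.00136, 0.11 and 0.0439. Rescaled without mitochondrial and haemoglobin genes, Prkaca was at 0.0575 and Ptpn5 at 0.0383. Prkaca was also at 0.0064 with sample weights and 0.0319 without both libraries. Without 1 library, Prkaca ran from -0.11 to 0.12, Ptpn5 from -0.14 to 0.0350 and the difference in the Adcy5 share from -3.22 to 0.90 points. The cause was not tested. Of the 6 shares, none passed in any of 14 alternatives. Depth is unknown, so counting error cannot be separated from the spread between libraries.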
